A study of Mus musculus with 6 samples.

Results

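Genes that mark the cortical hem and the choroid plexus, at the medial edge of the embryonic cortex, were followed library by library in RNA from mouse cortex at embryonic day 12.5. The set was given by name and holds 10 genes: Ttr, Clic6, Trpm3, Folr1 and Kl of the choroid plexus, Lmx1a, Rspo1, Rspo2 and Rspo3 of the hem, and the secreted Wnt modulator Dkk2. Of these 10, 7 have a row among the 12041 gene symbols of the table used; Rspo2, Folr1 and Kl were not analysed here. All 7 passed the filter on low values (1 FPKM or more in 3 or more libraries, FPKM being fragments per kilobase of transcript scaled for sequencing depth) and entered the test, which covered 9359 genes. The study set 3 wild-type libraries (WT) beside 3 libraries from a conditional double knockout of the histone deacetylase genes Hdac1 and Hdac2 (cKO), all of strain C57BL/6. Neither the recombinase that drives the deletion nor the cells it acts in is stated in the labels. The sample labels name the tissue as cortex, while the design text speaks of forebrains, and how far the dissection reached medially is not stated. Whether a group's libraries are separate embryos is also not stated, and a p-value therefore measures only library spread, part of which may be technical.

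The cortical hem is a strip of neuroepithelium between the future hippocampus and the choroid plexus, and it secretes Wnt and BMP proteins that pattern the medial cortex. The choroid plexus epithelium grows beside it along the dorsal midline, makes cerebrospinal fluid and secretes transthyretin. R-spondins are secreted proteins that strengthen Wnt signalling: bound to LGR receptors, they keep the ubiquitin ligases ZNRF3 and RNF43 from removing Frizzled receptors. In bulk RNA, fewer cells of a type and less RNA per cell cannot be told apart.

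Libraries are called by their column names: HC-1, HC-8 and HC-10 are WT, and HM-5, HM-13 and HM-16 are cKO. Whole reads recovered from the deposited values summed to 9712556 to 11922665 per library. Hdac1 lay at 193 to 212 FPKM in WT and 45.5 to 61.02 FPKM in cKO, and Hdac2 at 134 to 272 and 37.6 to 61.7 FPKM. The dorsal telencephalic gene Emx1 (147 to 201 FPKM) was present in every library. Libraries stood apart in several ways. Ribosomal RNA (Rn45s) took 29.7% of the reads of HM-13, compared with 0.506% to 2.48% in the rest. Xist, the transcript that coats the inactive X chromosome of females, had 155 FPKM in HC-8, 105 FPKM in HM-16 and no more than 0.0943 FPKM elsewhere, so neither group holds only repeats of a single sample. HC-8 and HM-16 were each the highest library of their group in 5 of the 7 genes; the part of sex in these values was not tested. HC-10 stood apart in the hem and choroid genes themselves, so the comparisons of the 7 genes and the calls of the gene lists are given with and without it.

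Ttr, Clic6 and Trpm3, the choroid plexus genes of the set that have a row, were almost absent from HC-10. Ttr (ENSMUST00000075312) encodes transthyretin, the thyroid hormone carrier of the cerebrospinal fluid. It stood at 118 FPKM in HC-1, 145 in HC-8 and 0.0769 in HC-10, while HM-5 had 64.5, HM-13 68.4 and HM-16 27.1. HC-1 and HC-8 were the highest of the 6 libraries, HC-10 was far below the others, and the cKO libraries lay between. The HC-10 value rests on 1 read, where HC-1 had 1627 reads and HC-8 2258. Per unit of depth this is 0.05796% of the level in HC-1 and HC-8 together, with an exact 95% interval of 0.00147% to 0.323% that covers counting error only.

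Clic6 (ENSMUST00000023670; chromosome 16, 92498134 to 92541243, GRCm38) encodes a member of the chloride intracellular channel family. It stood at 11.3 FPKM in HC-1, 20.6 in HC-8 and 0.0251 in HC-10, while HM-5 had 7.58, HM-13 7.69 and HM-16 9.04. It too had 1 read in HC-10, or 0.155% of the level in HC-1 and HC-8 (exact 95% interval 0.00391% to 0.863%). Trpm3 (ENSMUST00000099564; chromosome 19, 22692786 to 22926489) encodes a cation channel expressed in choroid plexus epithelium. It stood at 1.85 FPKM in HC-1, 3.81 in HC-8 and 0.0244 in HC-10, while HM-5 had 1.63, HM-13 1.69 and HM-16 1.16. Its HC-10 value was again 1 read (0.843% of HC-1 and HC-8, exact 95% interval 0.0213% to 4.74%). In all 3 choroid genes the cKO libraries lay inside the range of the WT libraries, which ran from HC-10 to HC-8.

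The hem genes were also lowest in HC-10, but they were still detected there with many reads. Lmx1a (ENSMUST00000028003; chromosome 1, 167689557 to 167848741) encodes a LIM homeodomain transcription factor of the roof plate and hem. It stood at 10.5 FPKM in HC-1, 16.4 in HC-8 and 2.05 in HC-10, while HM-5 had 6.76, HM-13 7.03 and HM-16 9.43. The 73 reads in HC-10 correspond to 15.01% of the level in HC-1 and HC-8 (exact 95% interval 11.7% to 19.04%), and the cKO libraries lay between HC-10 and HC-1.

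Rspo1 (ENSMUST00000030687; chromosome 4, 124986430 to 125009099) encodes an R-spondin ligand. It stood at 66.6 FPKM in HC-1, 92.5 in HC-8 and 8.75 in HC-10, while HM-5 had 45.1, HM-13 32.5 and HM-16 54.03. HC-10 was at 10.9% of HC-1 and HC-8 over 171 reads (exact 95% interval 9.29% to 12.7%). Rspo3 (ENSMUST00000092623; chromosome 10, 29452418 to 29535867) encodes a ligand of the same family. It stood at 56.2 FPKM in HC-1, 55.6 in HC-8 and 8.62 in HC-10, while HM-5 had 41.005, HM-13 33.1 and HM-16 48.995. Its HC-10 level, over 220 reads, was 15.4% of the other WT libraries (exact 95% interval 13.4% to 17.7%). HC-1 and HC-8 were nearly level in Rspo3, with HC-10 far below both. The ratio of Rspo1 to Rspo3 in FPKM stayed between 0.982 and 1.66 in the 6 libraries, HC-10 included, while Rspo1 varied 10.6-fold and Rspo3 6.52-fold among the WT libraries.

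Dkk2 (ENSMUST00000029665; chromosome 3, 132085292 to 132180304), which encodes a secreted Dickkopf protein that acts on Wnt coreceptors, did not follow the others. It stood at 6.17 FPKM in HC-1, 4.98 in HC-8 and 5.62 in HC-10, while HM-5 had 6.66, HM-13 5.86 and HM-16 7.93. The HC-10 value, 222 reads, was 102% of the level in HC-1 and HC-8 (exact 95% interval 86.3% to 119%). Its lowest library was HC-8, where 5 of the other genes had their highest value.

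RefSeq promoter entries (GRCm38.p6) were found for 4 of the 7 genes, and for 3 of them the entry starts within 5 bases of the transcript in the table. These are Rspo1 and Lmx1a, which shared the order of the WT libraries, and Dkk2, which did not. The 250 bases before each start are shown so that the windows can be compared; all lie on the plus strand, at chr4:124986180-124986429 (Rspo1), chr1:167689308-167689557 (Lmx1a) and chr3:132085042-132085291 (Dkk2). Capitals mark TATAAA, searched on both strands.
Rspo1: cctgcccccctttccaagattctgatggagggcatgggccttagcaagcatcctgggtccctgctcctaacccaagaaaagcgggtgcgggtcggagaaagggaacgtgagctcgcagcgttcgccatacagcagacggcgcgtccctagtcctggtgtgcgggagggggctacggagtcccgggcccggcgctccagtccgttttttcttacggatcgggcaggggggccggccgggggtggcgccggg
Lmx1a: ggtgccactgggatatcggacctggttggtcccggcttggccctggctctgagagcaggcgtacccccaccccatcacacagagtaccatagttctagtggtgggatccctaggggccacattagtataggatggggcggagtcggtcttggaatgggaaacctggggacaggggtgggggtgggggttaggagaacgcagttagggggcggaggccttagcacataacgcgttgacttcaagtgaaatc
Dkk2: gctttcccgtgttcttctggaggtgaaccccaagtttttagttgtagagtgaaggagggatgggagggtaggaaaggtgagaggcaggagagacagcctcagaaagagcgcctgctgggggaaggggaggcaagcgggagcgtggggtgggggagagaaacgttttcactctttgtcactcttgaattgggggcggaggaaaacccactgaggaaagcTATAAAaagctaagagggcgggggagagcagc
Dkk2 holds TATAAA 32 bases before the start and the other windows do not; of all 32851 promoter windows of this length, 12.4% hold it on either strand. No window of the 3 holds CTTTGA, the core recognised by TCF/LEF factors (13.8% of all windows), TAATCC, an OTX core (6.25%), or TAATTA, a homeodomain core (4.84%). The count of CpG dinucleotides is 22 in Rspo1, 9 in Lmx1a and 7 in Dkk2, and the median window holds 6. These are letters in a short window, and nothing is drawn from them about the factors.

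**Figure D1:**
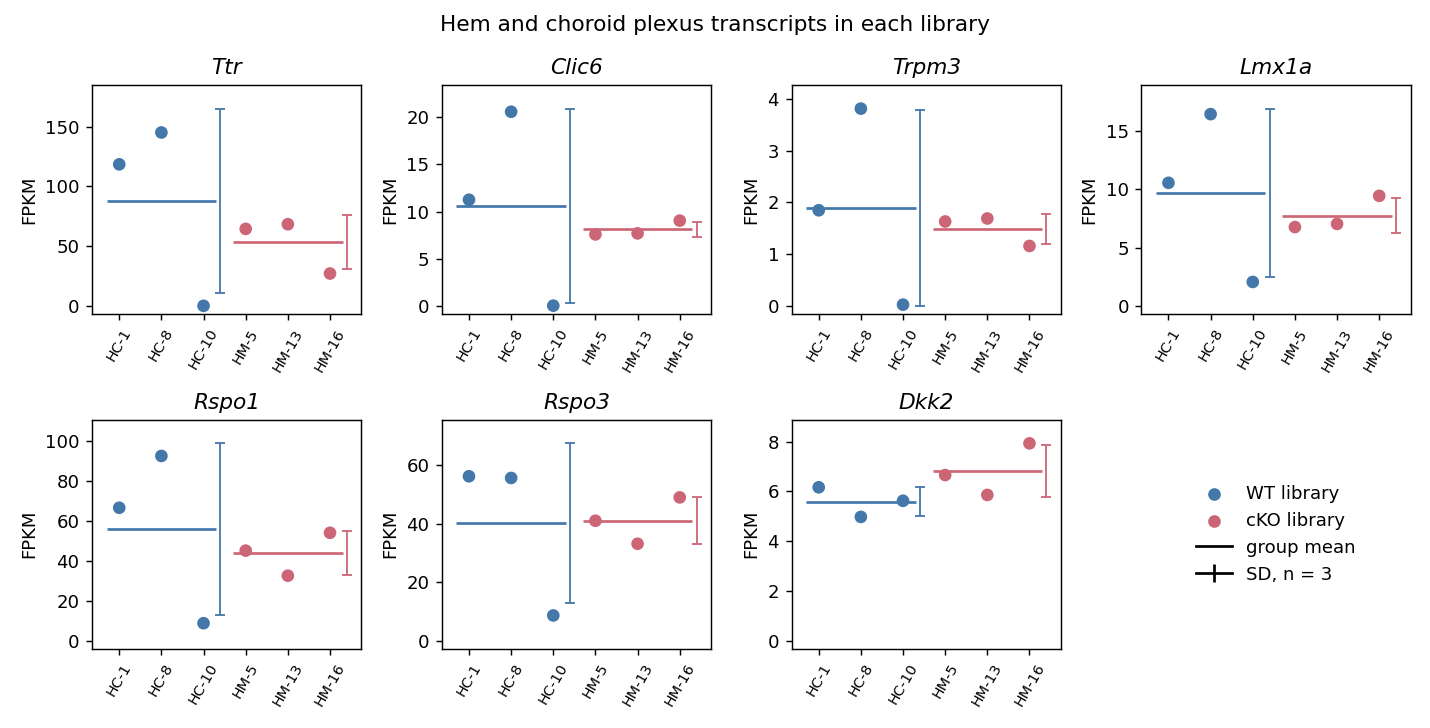
FPKM (linear axis, a separate scale for each gene) of the 7 genes in the 6 libraries, WT in blue and cKO in red; lines are group means and bars are SD (n = 3). HC-10 is the lowest library for every gene except Dkk2, and its Ttr, Clic6 and Trpm3 values lie between 0.0244 and 0.0769 FPKM.

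HC-10 was the lowest of the 6 libraries in 6 of the 7 genes, where 17.9% of all genes tested had their lowest value in that library. In the same 6 genes it lay at 50% or less of the next lowest library, which was the case for 87 (0.930%) of all genes tested. Each of the other libraries lay that low in 16 to 29 genes and in 0 of the 7. The median level of HC-10 relative to the mean of HC-1 and HC-8 was 11.004% over the 7 genes and 100.53% over all genes tested. The order HC-8, HC-1, HC-10 held for 5 of the 7 genes (Ttr, Clic6, Trpm3, Lmx1a and Rspo1). Within WT the highest library exceeded the lowest by a median of 5.95-fold on FPKM + 1 over the 7 genes, compared with 1.18-fold over all genes tested. Within cKO these medians were 1.35-fold and 1.17-fold.

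Other hem genes were low in HC-10 too. Of 26 further hem ligands and transcription factors, 19 were tested; HC-10 was the lowest library in 15 of these and at 50% or less of the next lowest in 8. Wnt3a, a canonical Wnt ligand of the hem, had WT values of 12.7, 14.2, 0.341 and cKO values of 5.66, 4.64, 11.1 FPKM (here and further on in the library order given above, from HC-1 to HC-10 and from HM-5 to HM-16). Wnt2b, another hem ligand, had WT values of 10.7, 12.1, 1.63 and cKO values of 5.395, 5.23, 5.73 FPKM. In both, HC-10 was the lowest library. Wnt8b, expressed in the hem and the adjoining hippocampal field, had WT values of 88.9, 107, 27.3 and cKO values of 96.3, 61.3, 100.1 FPKM, and Msx1, a target of BMP signalling, WT values of 9.71, 11.5, 4.37 and cKO values of 9.66, 7.15, 9.67 FPKM. HC-10 was again lowest, at a larger share of the other libraries than in Wnt3a.

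Of 26 further choroid plexus genes, 10 were tested, with HC-10 lowest in 8 and at 50% or less of the next lowest in 5. Kcne2, a potassium channel subunit of the epithelium, had WT values of 2.204, 3.104, 0.111 and cKO values of 1.51, 1.71, 0.448 FPKM. Otx2, a transcription factor that choroid plexus formation needs, was too low to be tested, at 0.206 to 1.83 FPKM. Its lowest library was HM-5, and HC-10 had 0.480 FPKM, above HM-13 (0.432 FPKM) too. The choroid list also holds genes with wider expression, and the ATPase subunit gene Atp1b1 was highest in HC-10 among the WT libraries. Relative to HC-1 and HC-8, the median level in HC-10 was 39.97% for the choroid list, 37.9% for the hem list and 55.1% for 6 Wnt target genes. It was 89.9% for 15 R-spondin and Wnt receptors, 94.2% for 14 genes of the hippocampal and medial pallium and 113% for 11 dorsal telencephalic genes. Among lists of other tissues, it was 67.6% for the diencephalon, 73.8% for endothelium, 74.1% for erythroid cells and 74.6% for meninges. It was 82.1% for hem-derived Cajal-Retzius cells, 113.8% for the septum and ventral telencephalon and 115.9% for the antihem and lateral pallium. HC-10 was the lowest library in 5 of the 7 erythroid genes. Axin2, a feedback target of Wnt signalling, had WT values of 22.6, 24.5, 12.01 and cKO values of 23.4, 17.4, 23.3 FPKM.

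**Figure D2:**
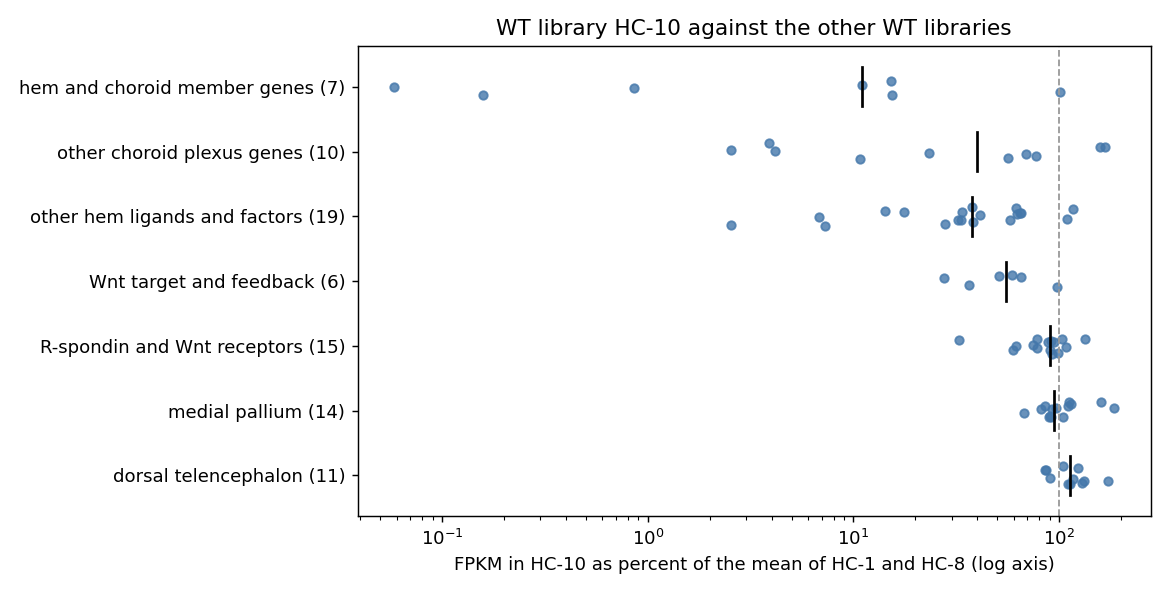
FPKM in HC-10 as a percent of the mean of HC-1 and HC-8 (log axis), a point per tested gene; each row is a gene list with its number of tested genes, black bars are medians and the dashed line is 100%. The median lies at 11.004% for the 7 genes and at 113% for the dorsal telencephalic genes.

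Among the cKO libraries the 7 genes had no single order, and the orders did not divide hem from choroid genes. Lmx1a of the hem and Clic6 of the choroid plexus shared the order HM-16, HM-13, HM-5. HM-16 was the highest cKO library in 5 of the 7 genes (Rspo1, Rspo3, Lmx1a, Clic6 and Dkk2) and the lowest in Ttr and Trpm3. Per unit of depth, HM-16 held 40.98% (exact 95% interval 36.4% to 46.03%) of the Ttr level of HM-5 and HM-13 together. For Rspo1 the share was 136% (exact 95% interval 126% to 148%), for Rspo3 130.3% (exact 95% interval 121% to 140.2%) and for Lmx1a 137% (exact 95% interval 119% to 158%). Among the other choroid genes it was 69.9% (exact 95% interval 48.9% to 98.4%) for Trpm3, with 47 reads in HM-16, and 119% (exact 95% interval 104% to 136%) for Clic6. All intervals of this paragraph cover counting error only and hold no spread between libraries. Beyond the 7, the share was 27.99% (exact 95% interval 11.5% to 59.2%) for Kcne2, which had 8 reads in HM-16, and 213% (exact 95% interval 181% to 250.3%) for Wnt3a. The ratio of Ttr to Rspo3 in FPKM was 2.11 in HC-1, 2.61 in HC-8, 1.57 in HM-5 and 2.06 in HM-13, but 0.553 in HM-16 and 0.00892 in HC-10. HM-13, with its high ribosomal RNA share, was the lowest cKO library for Rspo1, Rspo3 and Dkk2; the part of that share in these values was not tested.

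**Figure D3:**
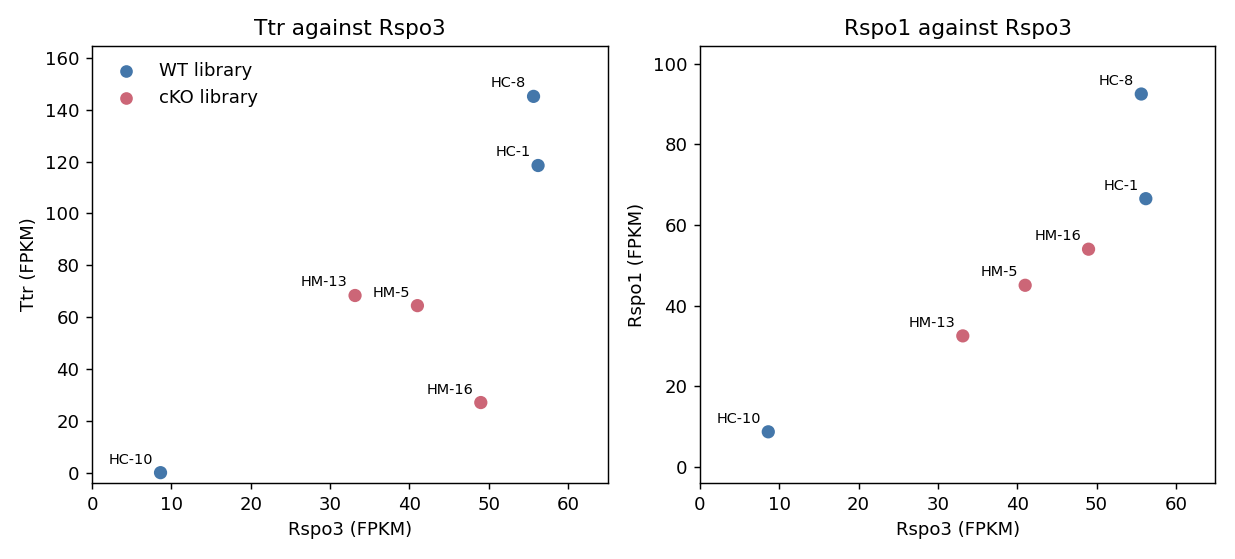
FPKM of Ttr (left) and Rspo1 (right) plotted against FPKM of Rspo3, a point per library, WT in blue and cKO in red. Rspo1 and Rspo3 rank the cKO libraries alike, whereas Ttr is lowest in HM-16, the cKO library with the highest Rspo3, and HC-10 is the lowest point in both plots.

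With all 6 libraries, 0 of the 7 genes passed the test between cKO and WT (limma on log2(FPKM + 1), Benjamini-Hochberg adjusted p under 0.05 over 9359 genes), where 18.0% of all genes tested did. An unadjusted p under 0.05 was seen for 0 of the 7 (34.3% of all genes). Limma's voom on the recovered reads also called 0 (20.4% of all genes), with 0 at an unadjusted p under 0.05 (35.3%). WT and cKO values overlapped in all 7, while the groups did not overlap in 39.1% of genes tested. Ttr was 87.9 ± 77.2 FPKM in WT and 53.3 ± 22.8 FPKM in cKO (SD, n = 3 each). Its log2 fold change (cKO minus WT) was 0.92 (95% interval -3.07 to 4.91, limma adjusted p = 0.742), opposite in sign to the difference of the mean FPKM. The same change of sign between the mean FPKM and the log scale was seen in Clic6, Trpm3, Lmx1a and Rspo1. Intervals this wide leave room for large differences in either direction. Rspo1 was 55.9 ± 42.9 and 43.9 ± 10.8 FPKM (log2 fold change 0.16, 95% interval -1.61 to 1.92) and Rspo3 40.2 ± 27.3 and 41.05 ± 7.93 FPKM (0.40, 95% interval -1.08 to 1.88). Lmx1a (0.0265, 95% interval -1.29 to 1.35), Clic6 (0.49, 95% interval -1.81 to 2.79) and Trpm3 (0.0403, 95% interval -1.11 to 1.19) also had wide intervals. Dkk2 had a narrow one, with 5.59 ± 0.596 FPKM in WT and 6.82 ± 1.05 FPKM in cKO (0.24, 95% interval -0.0653 to 0.55, limma adjusted p = 0.2395). In the authors' deposited table the log2 fold changes of the 7 genes run from -0.10 to 0.27 and the FDR from 0.226 to 0.984. These are a separate estimate, below 0 for Ttr (-0.0592), Rspo1, Lmx1a, Clic6 and Trpm3. For these genes the sign is opposite to that of limma on all 6 libraries, and the reason was not tested.

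Without HC-10, the direction turned for 6 of the 7 genes. All 3 cKO libraries then lay below both remaining WT libraries in Ttr, Clic6, Trpm3, Lmx1a, Rspo1 and Rspo3, as they did in 23.2% of the 9215 genes tested. Relative to the mean of HC-1 and HC-8, the cKO mean was 40.4% for Ttr, 50.9% for Clic6, 52.7% for Trpm3, 55.2% for Rspo1, 57.4% for Lmx1a, 73.4% for Rspo3 and 122% for Dkk2. Limma gave a log2 fold change of -1.39 (adjusted p = 0.0627) for Ttr, -0.85 (adjusted p = 0.0583) for Rspo1, -0.84 (adjusted p = 0.0666) for Clic6, -0.71 (adjusted p = 0.0808) for Lmx1a, -0.58 (adjusted p = 0.169) for Trpm3 and -0.45 (adjusted p = 0.1097) for Rspo3. Thus 6 of the 7 had an unadjusted p under 0.05 with a lower cKO level (13.2% of all genes tested), and 0 passed after adjustment (9.64% of all genes tested). With voom on the recovered reads 4 passed, all lower in cKO (5.55% of all genes tested): Ttr (-1.43, voom adjusted p = 0.0214), Rspo1 (-0.86, voom adjusted p = 0.0277), Clic6 (-0.92, voom adjusted p = 0.0389) and Lmx1a (-0.79, voom adjusted p = 0.0445). When HM-13 was left out as well, the log2 fold change of Ttr was -1.62 (limma adjusted p = 0.0358). The calls of that fit are given under the closing observations, beside the count over all genes tested. HC-10 was set aside after its low values in these genes had been seen, and WT then has 2 libraries, so these values describe how far 1 library sets the comparison. A difference between the groups in these genes and a difference in how much medial tissue the samples hold cannot be told apart.

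**Figure D4:**
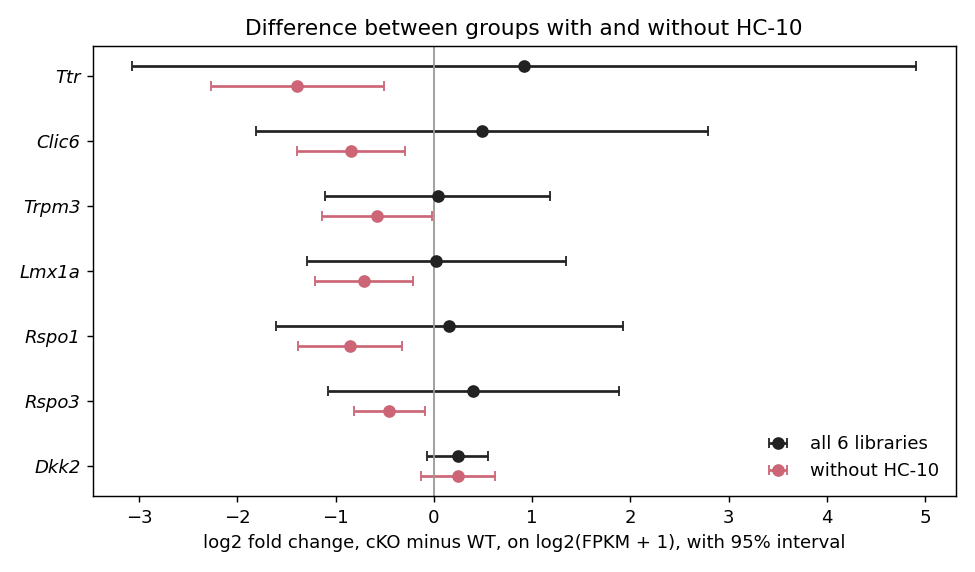
Log2 fold change (cKO minus WT, on log2(FPKM + 1)) of the 7 genes with 95% intervals from limma, for all 6 libraries (black) and without HC-10 (red). Without HC-10 the estimates of all genes except Dkk2 move from above 0 to below 0, to -1.39 for Ttr.

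Of the 19 further hem genes, 0 were called with limma on all 6 libraries (3 with an unadjusted p under 0.05; voom called 1, higher in cKO), where 9.62% of all genes tested were called higher and 8.39% lower. Their median log2 fold change was 0.10, compared with -0.00854 over all genes tested. Without HC-10, 3 fell with limma, where 3.93% of all genes fell and 5.71% rose, and the median was -0.24. They were Wnt2b (-0.94, limma adjusted p = 0.00829), the zinc finger gene Zic4 (-1.45, limma adjusted p = 0.0154) and the BMP target Id3 (-0.69, limma adjusted p = 0.0408). HC-10 was set aside after its low hem and choroid values had been seen, and it was the lowest library in 15 of the 19. Leaving it out lowers the log2 fold change of those genes by construction. The same holds for genes named below whose lowest WT library was HC-10. Id3 had WT values of 139, 153, 46.9 and cKO values of 85.6, 76.4, 112 FPKM. Zic4 had WT values of 6.96, 9.82, 3.21 and cKO values of 2.85, 1.598, 2.91 FPKM, with all cKO libraries below HC-10 too, and an adjusted p of 0.0648 with all 6 libraries (limma). Wnt3a had a log2 fold change of 0.23 with all 6 libraries (limma adjusted p = 0.875) and -0.91 (adjusted p = 0.1102) without HC-10. Voom without HC-10 called 5 of the 19 lower and 0 higher, where 5.55% of all genes tested were lower. Wnt3a was among the 5 (-0.9995, voom adjusted p = 0.0467).

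Of the 10 further choroid plexus genes, 1 rose and 0 fell with all 6 libraries. Wfdc2, a secreted whey acidic protein family member, had WT values of 51.4, 36.02, 33.5 and cKO values of 70.2, 52.3, 76.1 FPKM (log2 fold change 0.71, limma adjusted p = 0.03799). Its call was lost without HC-8, HC-10, HM-5 or HM-16 (limma, largest adjusted p = 0.131). Without HC-10, Sostdc1, a secreted antagonist of BMP and Wnt proteins, fell, and Atp1b1 rose. The median log2 fold change of the 10 genes was 0.21 with all 6 libraries and 0.23 without HC-10, where 4 of the 10 were negative. The median did not turn below 0 without HC-10, unlike the values of Ttr, Clic6 and Trpm3. Sostdc1 had WT values of 3.45, 4.795, 0.161 and cKO values of 1.72, 1.33, 0.812 FPKM (limma adjusted p = 0.592 with all 6 libraries and 0.0218 without HC-10).

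Of 15 receptors for R-spondins and Wnts, 4 rose and 0 fell, and these counts were equal without HC-10. Counts of the choroid list, this list and those below stand beside 9.62% of all genes called higher and 8.39% lower by limma. Without HC-10 these shares were 5.71% and 3.93%. Kremen1, a Dickkopf receptor, had WT values of 11.1, 10.8, 10.4 and cKO values of 22.7, 18.1, 23.7 FPKM (log2 fold change 0.93, limma adjusted p = 0.00305). The Frizzled receptor genes Fzd4 (0.98, limma adjusted p = 0.00397) and Fzd7 (0.50, limma adjusted p = 0.0116) and the proteoglycan gene Sdc4 (0.60, limma adjusted p = 0.00838) rose as well; Fzd7 lost its call without HM-5 or HM-16 (adjusted p = 0.0593 and 0.0506). The R-spondin receptor gene Lgr4 had WT values of 6.33, 6.76, 3.91 and cKO values of 5.07, 4.36, 6.63 FPKM and was not called. Znrf3, for the ligase that R-spondins restrain, had 1.304 to 1.97 FPKM in the 6 libraries, and the related Rnf43 was below the limit for testing, at 0.653 to 1.18 FPKM in WT and 0.162 to 0.594 FPKM in cKO.

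Of 7 secreted Wnt antagonists tested besides Dkk2, 2 fell and 0 rose, and these counts were equal without HC-10, with Sostdc1 in place of Sfrp1. Draxin, which also binds Wnt coreceptors, had WT values of 22.8, 19.04, 17.2 and cKO values of 5.799, 9.93, 7.09 FPKM (log2 fold change -1.28, limma adjusted p = 0.00519). Sfrp1, for a Wnt-binding protein, was the other (-0.37, limma adjusted p = 0.0234), and its call was lost without HC-10, HM-5, HM-13 or HM-16 (largest adjusted p = 0.0858). Of 6 Wnt target genes, Nkd1 rose (0.60, limma adjusted p = 0.0451) and Ccnd1 fell (-0.76, limma adjusted p = 0.00756), and without HC-10 0 rose and 1 fell; the call of Nkd1 was lost with any library but HC-8 left out (largest adjusted p = 0.142). Of 14 genes of the hippocampal and medial pallium, which borders the hem, 5 rose and 1 fell, and without HC-10 these numbers were 4 and 1. Those with the smallest p were Dmrta1 (0.73, limma adjusted p = 0.00272), Prox1 (0.71, limma adjusted p = 0.00805) and Id4 (-0.47, limma adjusted p = 0.0146). Id4 lost its call without HM-5 or HM-16 (limma, largest adjusted p = 0.0617).

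Markers of neighbouring tissues had their own patterns across libraries. The summed FPKM of 11 dorsal telencephalic genes was 745 to 874 in WT and 776 to 824 in cKO, with 2 called higher and 0 lower (1 and 0 without HC-10). Of 20 genes of the septum and ventral telencephalon 8 were tested, with 1 higher and 2 lower (1 and 1 without HC-10), and HC-10 was the lowest library in 0 of them. Sums here and below take all genes of a list that have a row, tested or not. For this list the sum was 54.2, 137, 95.6 in the WT libraries, in the order given, and 42.7, 62.4, 76.9 in cKO. For meninges and mesenchyme (13 of 15 tested, 1 higher and 0 lower with or without HC-10) it was 529 to 779 in WT and 845 to 1055.2 in cKO. The gap between these sums rests on the called gene, Crabp2, with 252 to 277 FPKM in WT and 566 to 616 FPKM in cKO; without it the sums overlap, at 252 to 518 and 279 to 446. For the diencephalon and thalamic eminence (6 of 16 tested, 1 higher, 0 lower) it was 30.3 to 38.1 and 26.6 to 28.9. Without HC-10, 0 genes of this list were higher and 1 lower: Epha8 lost its call (limma adjusted p = 0.0218 and then 0.0584) and the LIM homeodomain gene Lhx5 fell (-0.85, limma adjusted p = 0.0103). The antihem and lateral pallium (5 of 8 tested, 2 higher and 0 lower with or without HC-10) had 32.1 to 40.9 and 51.4 to 54.3. Cajal-Retzius cells that come from the hem (4 of 12 tested) had 23.7 to 32.8, lowest in HC-10, and 21.4 to 22.9; with all 6 libraries 0 were called by limma or voom and 2 were at an unadjusted p under 0.05, and without HC-10 both called Lhx5 lower, which is on this list too. Endothelium and pericytes (5 of 12 tested) had 77.9 to 142 and 108 to 138, and erythroid cells (7 of 10 tested) 14600.5 to 19649.5 and 16643.4 to 24432.2, both with 0 called by limma or voom and 0 at an unadjusted p under 0.05, with or without HC-10. No gene of these lists with a row was at 0 in all libraries. Their part in the hem and choroid values was not tested.

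The genes most like Ttr across the 6 libraries were found by the root mean square difference of log2(FPKM + 1), each gene centred on its own mean. The 6 closest were Clic6 (1.13), Wnt3a (1.43), Cdc20b (1.45), Rspo1 (1.49), Ccno (1.57) and Mcidas (1.58). Mcidas encodes multicilin, which switches on the multiciliated cell programme, and Ccno and Cdc20b act in the same programme. These 3 genes are neighbours within 103 kb of chromosome 13 (112987802 to 113091195, GRCm38). Mcidas had WT values of 8.01, 10.4, 0.399 and cKO values of 2.74, 3.25, 4.11 FPKM. Ccno had WT values of 11.5, 16.6, 0.951 and cKO values of 5.19, 3.96, 5.21 FPKM and Cdc20b WT values of 6.16, 11.8, 0.1203 and cKO values of 2.83, 3.72, 2.49 FPKM. In each, HC-10 was the lowest library and the cKO libraries lay below HC-1 and HC-8, as in Ttr; the genes were chosen for this likeness, so no test of it is given.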

How the data were processed

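RNA was measured in 3 WT and 3 cKO cortex libraries. The submitters' processing notes name the tools bcl2fastq (1.8.4), STAR (2.5.4b), featureCounts (1.6.1), DESeq2 (1.22.1) and R (3.4.1), and the build mm10; the annotation and strand setting are not stated there. Per the file headers, the deposited table of 14379 rows gives FPKM in each library and, over all libraries, the authors' mean normalized count (a signal), log2 fold change, p-value and FDR. Column names are not sample titles: HC was read as WT and HM as cKO from their letters, and replicate numbers could not be matched.

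Each FPKM multiplied by its row's mean normalized count over mean FPKM, and divided by a step fitted per library, gave whole reads for 100% of values (within 0.001 of a read). Each symbol was represented by its row of highest mean normalized count. Limma 3.58.1 (R 4.3.3; intensity trend, group as the only term) tested log2(FPKM + 1) after the filter named in the report; this scale understates the change of low genes. The fit was tested on simulated data with the same spread setting for all genes and no library set apart. False calls made up 5.03% of the calls with all 6 libraries and 7.34% without HC-10. The simulation does not cover genes that vary between libraries as Ttr does. Alternatives were pseudocounts of 0.1 and 5, no filter or a minimum of 5 FPKM, quantile and total scaling, voom on the recovered reads, and leaving out each library. After the data were seen, voom without HC-10 and a fit without HC-10 and HM-13 were added. Read-based intervals are exact conditional binomial ones and cover counting error only, since reads are not independent molecules.

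The members and gene lists were chosen with earlier results of these data known. The text names the 7 genes, a fixed set of related genes, the genes with the smallest p in the lists, and the 6 most like Ttr; some genes this rule takes in are not reported here. Emx1, Atp1b1, Id3, Sostdc1 and all genes under the closing observations were picked after seeing their values.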

Additional observations from a re-analysis of the deposited data

How the results depend on the processing

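No paired analysis was possible because the columns carry no replicate numbers. The count of changed genes, 1685, ran from 511 (without HM-5) to 1773 (without HM-13) with 1 library left out; it was 545 without HM-16, 888 without HC-10 and 1103 without HC-1, 517 after rescaling to equal totals and 1115 without HC-10 and HM-13. Of the 7 hem and choroid genes, 0 were called in any fit with 1 library left out. Without HC-10 and HM-13, 1 was called, where 1115 of all 8891 genes tested were. With voom without HC-10, 4 were called, all lower in cKO, as were 5.55% of all genes tested. Of the 7, the groups did not overlap in 0 to 6 with 1 library left out (44.2% to 53.6% of all genes tested), and in 7 without HC-10 and HM-13, 6 lower and Dkk2 higher in cKO (61.2% of all genes tested). The median WT spread of 5.95-fold became 10.5-fold with a pseudocount of 0.1 and ran from 1.38 to 5.95-fold with 1 library left out, lowest without HC-10.

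With 1 library left out, log2 fold changes ran from -1.39 to 2.15 for Ttr, -0.85 to 0.78 for Rspo1, -0.45 to 0.83 for Rspo3, -0.71 to 0.54 for Lmx1a, -0.84 to 1.36 for Clic6, -0.58 to 0.54 for Trpm3, -0.76 to 0.19 for Kcne2, -0.91 to 0.84 for Wnt3a, -0.94 to 0.22 for Wnt2b, -0.21 to 0.75 for Wnt8b, -0.24 to 0.36 for Msx1, -0.26 to 0.067 for Lgr4, -0.0205 to 0.16 for Znrf3, -0.14 to 0.34 for Axin2, -1.27 to 0.49 for Cdc20b, -1.36 to 0.22 for Ccno and -1.23 to 0.29 for Mcidas. Dkk2 kept its sign in these fits (0.14 to 0.33).

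With voom without HC-10, the sign turned, to -1.43 for Ttr, -0.86 for Rspo1, -0.46 for Rspo3, -0.79 for Lmx1a, -0.92 for Clic6, -0.87 for Trpm3, -0.9995 for Wnt3a, -0.21 for Wnt8b, -0.26 for Msx1, -0.0316 for Znrf3, -0.14 for Axin2. Without HC-10 and HM-13, the sign turned, to -1.62 for Ttr, -0.66 for Rspo1, -0.31 for Rspo3, -0.66 for Lmx1a, -0.81 for Clic6, -0.64 for Trpm3, -0.69 for Wnt3a, -0.12 for Msx1, -0.00354 for Znrf3, -0.00989 for Axin2. With a pseudocount of 5, the sign turned, to -0.068 for Lmx1a, -0.0502 for Trpm3, -0.0446 for Wnt3a. With quantile normalization, the sign turned, to -0.0368 for Lmx1a. With a pseudocount of 0.1, the sign turned, to 0.0143 for Kcne2, 0.27 for Cdc20b. With voom on all libraries, the sign turned, to 0.0198 for Kcne2, 0.28 for Cdc20b. Beyond the removal of samples, the cause was not tested. Trpm3 was not tested at a minimum of 5 FPKM. With 1 read behind Ttr, Clic6 and Trpm3 in HC-10, their log values there depend on the pseudocount.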

Other observations

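Among the 87 genes at 50% or less of the next lowest library in HC-10, 63 belong to none of the lists. The genes named here were picked after their values were seen, with no count behind the choice. Krt8 and Foxj1 are on the choroid plexus list, and Dlx2 and Gad2 on the septum and ventral telencephalon list. The others named here are on no list. In the 6 of the named genes that are among the 87, the HC-10 value rests on 1 to 3 reads. Values follow the library order HC-1, HC-8, HC-10 for WT and HM-5, HM-13, HM-16 for cKO. The radial spoke gene Rsph4a had WT values of 1.02, 1.93, 0.0514 and cKO values of 1.28, 1.15, 1.56 FPKM, and Dnajb13, also of the radial spoke, had WT values of 2.64, 1.85, 0.164 and cKO values of 1.86, 1.42, 1.83 FPKM. Cfap206, a cilia and flagella associated gene, had WT values of 1.66, 0.869, 0.0547 and cKO values of 1.29, 1.62, 1.38 FPKM. In all 3 genes HC-10 was far below the other libraries, and the cKO values overlapped those of HC-1 and HC-8. The cilia regulator Foxj1 was at 0.794 to 1.58 FPKM, too low to be tested, and its lowest library was HM-5.

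The keratin gene Krt8 had WT values of 1.58, 2.52, 0.052 and cKO values of 3.53, 2.89, 5.04 FPKM, and the claudin gene Cldn3 had WT values of 2.18, 2.05, 0.223 and cKO values of 2.94, 1.65, 2.33 FPKM. The potassium channel gene Kcnj13, known from choroid plexus epithelium, had WT values of 1.25, 1.87, 0.0921 and cKO values of 0.926, 1.06, 0.745 FPKM. All cKO libraries lay above HC-1 and HC-8 in Krt8 and below both in Kcnj13.

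Ventral genes set other libraries apart. The transcription factor gene Dlx2 had WT values of 3.74, 38.3, 26.5 and cKO values of 1.43, 11.8, 13.1 FPKM, and Gad2, for an enzyme of GABA synthesis, had WT values of 0.727, 6.08, 7.54 and cKO values of 0.0314, 2.37, 4.65 FPKM. Both were lowest in HM-5, and HC-1 was the lowest WT library; HC-10, low in the hem and choroid genes, was not low in these.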
